A study of Mus musculus with 4 samples.

Results

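The 10 genes described here encode proteins that build, supply or regulate the actin network which moves the meiotic spindle in mouse oocytes. They are *Fmn2*, *Spire1*, *Spire2*, *Daam1*, *Wasl*, *Cttn*, *Pfn1*, *Pfn2*, *Cfl1* and *Myo5b*. They were named by their function, and all 10 were found by Ensembl identifier among the 21957 genes of the expression table. Their mRNA levels were compared in control oocytes at the germinal vesicle stage (GV, 0 h of culture), in control oocytes at the second metaphase (MII, after 12 h), and in oocytes kept for 12 h with tubastatin A at 10 μM (TubA-10) or 20 μM (TubA-20). All oocytes came from B6D2F1 hybrid females (C57BL/6 x DBA) of 6 to 8 weeks, were freed of cumulus cells, and those of the 3 other conditions than GV were cultured in M16 medium. Each condition was 1 library made from a pool of oocytes, so no difference could be set against a spread between replicates, and none carries a p-value. The MII oocytes were taken only if they had extruded a polar body, and no such selection is stated for the TubA oocytes, so drug and meiotic stage cannot be told apart. The titles of the TubA samples give the doses used here, while the treatment field of the same samples lists TubA-10 with 20 μM and TubA-20 with 11 μM, and the MII sample is titled as an embryo. Tubastatin A is an inhibitor of HDAC6, a mainly cytoplasmic deacetylase whose substrates include α-tubulin and cortactin, the product of *Cttn*.

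An oocyte divides asymmetrically, and its spindle travels from the centre to the cortex before the first polar body is released. Formin-2 elongates straight actin filaments throughout the cytoplasm, and the Spire proteins nucleate filaments together with it on vesicles that carry Rab11a and myosin Vb. At the cortex the Arp2/3 complex, switched on by N-WASP and related proteins, builds the branched network of the actin cap. Profilin loads actin monomers for formins, cofilin severs old filaments, and cortactin stabilises branches. Oocytes store mRNA during growth and are nearly silent in transcription while they mature, a time when stored mRNA is decayed or has its poly(A) tail altered.

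Expression was given as FPKM, fragments divided by transcript length and scaled to a fixed number of mapped fragments, which allows levels of different genes to be compared per length. A change is the log2 of the ratio of FPKM + 1, and 2-fold is the threshold for a count. The fixed 1 shrinks the change of genes at low level. All 10 genes were listed with at least 1 FPKM in every library, and 7 had at least 5 FPKM in every library. *Spire2* and *Cttn* stayed under 5 FPKM in all 4 libraries. By an estimate from the ratios of low FPKM values, which is not a count of sequenced reads, MII and TubA-10 rested on more fragments than GV (1.62 and 1.70 times) and TubA-20 on about as many (0.896 times). All 10 oocyte markers were at 12.4 FPKM or more in every library, while the 11 cumulus and granulosa markers added up to between 20.3 and 25.2 FPKM. Most of that sum came from *Nr5a2* (9.12 to 11.5 FPKM) and *Cyp19a1* (6.14 in GV, 8.60 in MII, then 7.42 and 10.3 at the low and high dose). Of the other markers, *Foxl2* was listed at 0 throughout, *Amh* and *Fshr* stayed under 0.5 FPKM, and *Inha* was at 7.50 FPKM in GV and at or below 0.314 FPKM in the other 3 libraries, whereas *Ptx3* and *Tnfaip6* were listed at 0 in GV and at 1.19 and 1.57 FPKM in TubA-20. Their part in the results was not tested. All values describe poly(A)-selected RNA of a pool, in which fewer transcripts per oocyte and fewer oocytes holding them cannot be told apart. Each level is relative to the other poly(A) RNA of its library. A rise or fall in this text is therefore one of FPKM and does not give the change in mRNA molecules per oocyte.

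Because the libraries were selected by the poly(A) tail, the 3′ ends of the transcripts are shown first. The windows are 30 bases long, 5′ to 3′ on the strand of the gene, with the polyadenylation hexamer AATAAA in capitals, from the GENCODE transcripts on GRCm38. *Fmn2* and *Wasl* stand for the genes that rose during maturation, and *Pfn1* and *Pfn2* for those at lower level in MII.

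Fmn2, chr1:174822700-174822729 (+): ttatatgaaAATAAAatgaatAATAAAata

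Wasl, chr6:24613819-24613848 (-): atcatggaacatAATAAAattaatttgacc

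Pfn1, chr11:70651853-70651882 (-): tttttttttctgAATAAAaaaagattctac

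Pfn2, chr3:57841905-57841934 (-): acagacagatgaAATAAAtttattccaacc

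All 4 windows lie in the 3′ UTR of the principal transcript and hold the hexamer near the annotated end. Cytoplasmic polyadenylation elements (CPE), short U-rich motifs that steer tail length in maturing oocytes, were searched on the transcript strand as TTTTAT or TTTTAAT, the latter of which can share its last letters with AATAAA. In the last 150 bases of the 3′ UTR, 27.2% of 6989 genes with at least 5 FPKM in a library and 23.4% of all 17992 genes held such a motif. Of the 10 genes, *Spire1* held TTTTAT and *Myo5b* held TTTTAAT there, and the other 8 held neither. The annotated 3′ UTR of *Spire2* was only 121 bases long and was searched whole, and it also held no AATAAA or ATTAAA hexamer. Farther from the end, single motifs nearest to the 3′ end were found in the 3′ UTRs of *Fmn2*, *Wasl*, *Daam1* and *Pfn2*, shown here with the CPE in capitals.

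Fmn2, chr1:174822531-174822560 (+): gaaacagtagtgTTTTATtttcttctgctg

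Wasl, chr6:24614224-24614253 (-): cttttgtttgctTTTTATttttgtgtaaaa

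Daam1, chr12:71990292-71990321 (+): tcttgtgaagtaTTTTATggttcccaaggt

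Pfn2, chr3:57842234-57842263 (-): tgcagcttaggtTTTTATatgaagttgcat

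In these windows the motif begins 187 bases before the annotated end in *Fmn2*, 437 in *Wasl*, 2024 in *Daam1* and 357 in *Pfn2*. Genes with a motif in the last 150 bases had a median log2 change of 0.50 from GV to MII, and those without had 0.05, beside 0.62 for *Spire1* and 0.75 for *Myo5b*. The others of the 10 genes, without a motif there, ran from −1.05 for *Spire2* to 1.15 for *Wasl*. Over the whole 3′ UTR, 6 of the 10 genes held at least 1 motif, and so did 59.6% of 7780 genes with at least 5 FPKM in a library. The 10 genes had a longer 3′ UTR, with a median of 1403 bases against 856. The motif was present both in genes that rose (*Fmn2*, *Wasl*) and in a gene that was lower in MII (*Pfn2*).

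The formin gene *Fmn2* (ENSMUSG00000028354, GRCm38 chromosome 1, 174501825 to 174822729) was at 34.1 FPKM in GV and 72.8 in MII, with TubA-10 at 58.5 and TubA-20 at 100.2. The level was lowest before culture and highest at the higher dose, with TubA-10 between GV and MII. Its log2 change was 1.07 in MII against GV, past 2-fold, though at 0.95 once the median gene was put at 0, and against MII it was −0.31 at the low dose and 0.46 at the high dose. The step from TubA-10 to TubA-20 was 0.77, the highest value among the 10 genes for that comparison but short of 2-fold.

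Of the Spire genes, *Spire1* (ENSMUSG00000024533, chromosome 18, 67488209 to 67610790) had 29.5 FPKM in GV and 46.0 in MII, then 48.1 at the low dose and 63.1 at the high dose. *Spire2* (ENSMUSG00000010154, chromosome 8, 123332713 to 123369515) ran the other way, at 4.57 FPKM before culture (GV) and 1.68 in MII, against 2.87 with 10 μM and 1.28 with 20 μM of the drug. *Spire1* was thus the main Spire transcript in every library, and the pair moved apart in all 3 cultured libraries. The ratio of *Spire1* to *Spire2*, which no scaling of a library can alter, was 6.47 in GV, 16.8 in TubA-10, 27.3 in MII and 49.3 in TubA-20. Its size is uncertain, because the low *Spire2* values, down to 1.28 FPKM in TubA-20, rest on few fragments. From GV to MII, *Spire2* fell past 2-fold, by 1.05 on the log2 scale, and *Spire1* was at 0.62. The change of *Spire2* was short of 2-fold with equal FPKM sums (−0.96) or equal *Gapdh* (−0.88), and larger (−1.39) with 0.1 added in place of 1. Against MII, the log2 changes of TubA-20 were 0.45 for *Spire1* and −0.23 for *Spire2*.

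*Daam1* (ENSMUSG00000034574, chromosome 12, 71831078 to 71992333) encodes a formin of the Dishevelled-associated group. It was at 26.2 FPKM in GV and 51.2 in MII, with TubA-10 at 37.7 and TubA-20 at 48.7. Here MII rather than TubA-20 was highest, and the low dose was again between GV and MII. The log2 change of 0.94 in MII against GV fell short of 2-fold but was past it once *Gapdh* (1.16) or the FPKM sums (1.07) were made equal, and at the threshold for equal upper quartiles, and TubA-10 was at −0.43 against MII, the lowest value of the 10 genes in that comparison. The ratio of *Fmn2* to *Daam1* was 1.30 in GV and 1.42 in MII, and was larger at both doses, 1.55 and 2.06.

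**Figure D1:**
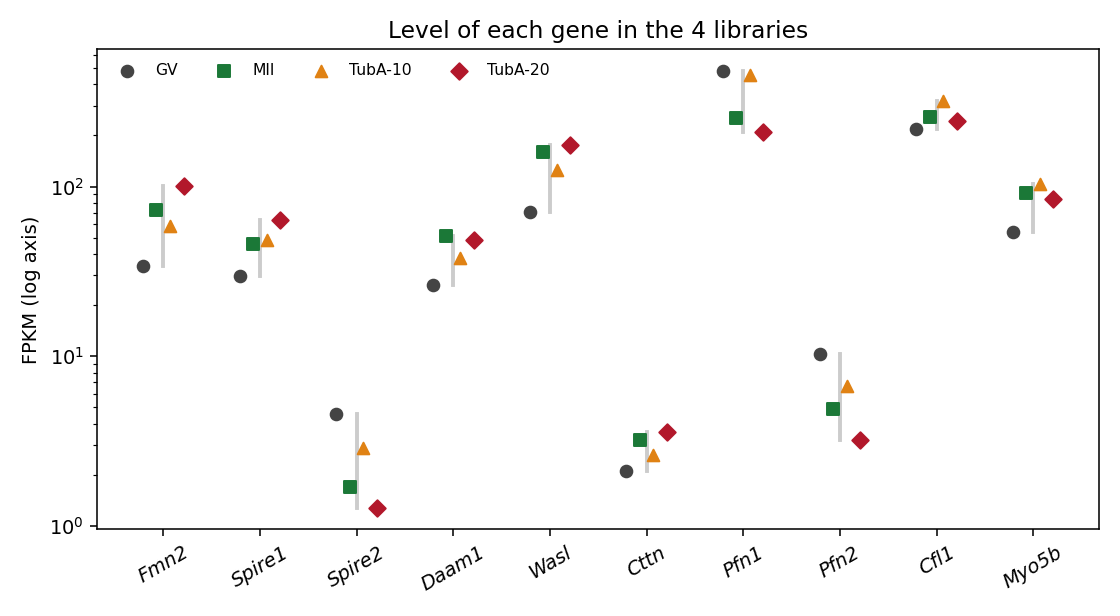
FPKM (log axis) of the 10 genes in the 4 libraries, with 1 point per library and a grey line from the lowest to the highest. *Fmn2*, *Spire1*, *Daam1*, *Wasl*, *Cttn*, *Cfl1* and *Myo5b* have their lowest point in GV, and *Spire2*, *Pfn1* and *Pfn2* have their highest there.

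*Wasl* (ENSMUSG00000029684, chromosome 6, 24613805 to 24665009) encodes N-WASP, which activates the Arp2/3 complex downstream of Cdc42. It had 71.0 FPKM in GV and 159 in MII, then 125 at the low dose and 175 at the high dose. The gain from GV to MII, 1.15 on the log2 scale, was the largest of the 10 genes. TubA-10 stood at −0.35 and TubA-20 at 0.14 against MII, the latter at −0.02 with equal *Gapdh* and −0.01 with equal FPKM sums.

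*Cttn* (ENSMUSG00000031078, chromosome 7, 144435733 to 144471009), whose protein cortactin is a substrate of HDAC6, was at 2.10 FPKM before culture (GV) and 3.20 in MII, against 2.62 with 10 μM and 3.56 with 20 μM of the drug. These are low levels, above those of 48.6% of the genes listed above 0 in MII, where *Wasl* was above 95.5%. The order of the libraries was that of *Fmn2* and *Wasl*, but no difference passed 2-fold, with log2 changes of 0.44 in MII against GV and, against MII, of −0.22 at the low dose and 0.12 at the high dose. With equal *Gapdh* the last value was 0.00. The gene of the deacetylase itself, *Hdac6*, was at 4.44 FPKM in GV, at 3.74 in MII and at 1.86 with the high dose, with the low dose between the last 2 values. As deposited, enzyme and substrate mRNA had different orders, with *Hdac6* lowest and *Cttn* highest in TubA-20. Both genes stayed under 5 FPKM in every library, and the lead of *Cttn* in TubA-20 over MII was lost with equal *Gapdh*. The values of *Hdac6* were not recomputed with other scalings. Some 9.3% of the 31-base words of the *Cttn* transcript also occur in 3 annotated pseudogenes, so reads may be shared and its level is uncertain.

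Both profilin genes of the 10 were at lower level in MII than in GV, while *Pfn4*, another profilin gene outside the 10, was at 20.4 FPKM in GV and 21.6 in MII. *Pfn1* (ENSMUSG00000018293, chromosome 11, 70651850 to 70654644), the most abundant of the 10 in GV, had 478 FPKM there and 253 in MII, then 457 at the low dose and 210.2 at the high dose. *Pfn2* (ENSMUSG00000027805, chromosome 3, 57841895 to 57848079) was at 10.3 FPKM before culture (GV) and 4.85 in MII, against 6.68 with 10 μM and 3.22 with 20 μM of the drug. In both genes GV was highest, TubA-20 lowest, and TubA-10 between GV and MII. TubA-10 nearly kept the GV level of *Pfn1*, with a log2 change of −0.06 against GV that turned to 0.20 with equal *Gapdh* and 0.01 with equal FPKM sums. It stood 0.85 above MII, the largest difference of any of the 10 genes in that comparison. In MII against GV, *Pfn1* was at −0.91 and *Pfn2* at −0.95. Between the doses *Pfn1* fell by 1.12 on the log2 scale, past 2-fold, and *Pfn2* was at −0.86.

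*Cfl1* (ENSMUSG00000056201, chromosome 19, 5490455 to 5495201), the gene of the main non-muscle cofilin, was at 219.8 FPKM in GV and 258 in MII, with TubA-10 at 320.0 and TubA-20 at 244. It had the narrowest range of the 10, with the highest library 1.46 times the lowest, and TubA-10 was highest. All its log2 changes were between −0.39 and 0.54. Of its 31-base words, 16.4% also occur in 403 other annotated genes, 12 of them pseudogenes, so its level is uncertain too. The ratio of *Pfn1* to *Cfl1* was 2.17 in GV, 1.43 in TubA-10, 0.980 in MII and 0.863 in TubA-20.

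The motor gene *Myo5b* (ENSMUSG00000025885, chromosome 18, 74440936 to 74771493), which moves Rab11a vesicles along actin, had 53.7 FPKM in GV and 91.1 in MII, then 104 at the low dose and 84.8 at the high dose. All 3 cultured libraries were above GV, by log2 changes of 0.65 to 0.94, and they differed among themselves by less. Against MII it stood at 0.19 in TubA-10 and −0.10 in TubA-20. *Myo5b* and *Cfl1* were the only ones of the 10 with their highest level in TubA-10.

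**Figure D2:**
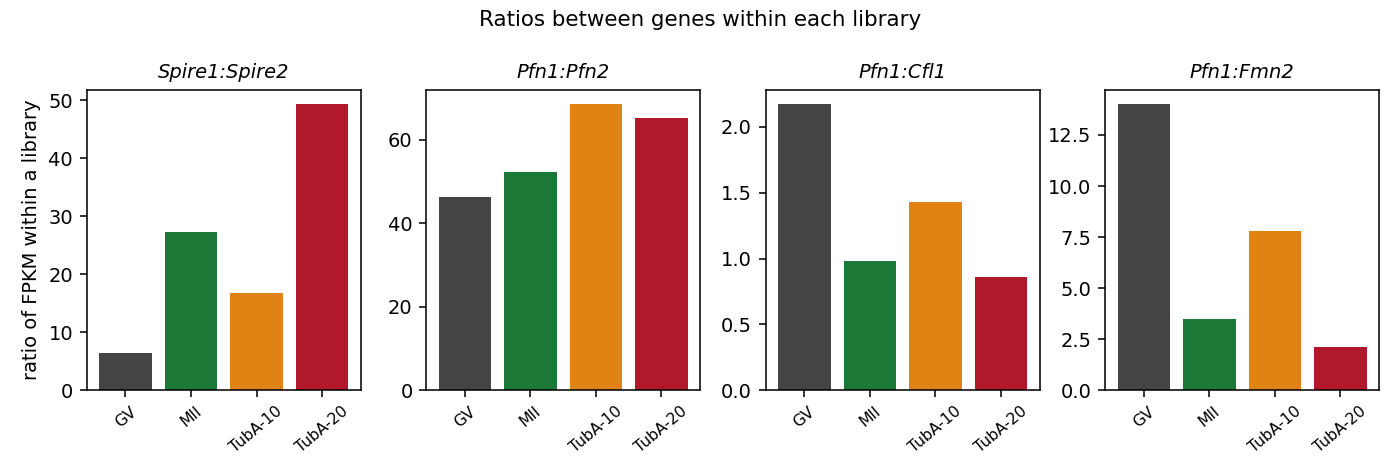
Ratio of FPKM between pairs of the 10 genes within each library (bars start at 0, 1 library each). *Spire1* to *Spire2* climbs from 6.47 in GV to 49.3 in TubA-20, *Pfn1* to *Pfn2* stays between 46.4 and 68.5, and *Pfn1* to *Cfl1* and *Pfn1* to *Fmn2* are highest in GV and lowest in TubA-20. *Spire2* is under 5 FPKM in every library, so the size of its ratio is uncertain.

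As a group, maturation without the drug split the 10 genes. In MII against GV, 7 were higher and 3 lower, and past 2-fold *Fmn2* and *Wasl* rose and *Spire2* fell. Over all 21957 genes 3.05% rose and 8.34% fell by as much, and among the 7685 genes with at least 5 FPKM in GV or MII the shares were 8.26% and 20.8%. The median log2 change was 0.53 for the 10 genes, 0.00 over all genes and 0.11 over those 7685. The median of the 10 includes *Spire2* and *Cttn*, which are not among the 7685, so these sets were not filtered alike. A gene at 5 FPKM or more had its middle range from −0.80 to 0.67, the lower and upper quartiles, and 4 of the 10 genes were above it (*Fmn2*, *Daam1*, *Wasl*, *Myo5b*) and 3 below (*Spire2*, *Pfn1*, *Pfn2*). Without *Spire2*, which does not reach 5 FPKM, no fall past 2-fold remained. Both counts depended on the scaling. When the median gene was put at 0, *Fmn2* dropped out of the rises, and *Pfn1* (−1.04) and *Pfn2* (−1.05) joined the falls, while 1.65% of all genes rose and 9.43% fell. With equal FPKM sums or equal *Gapdh*, *Daam1* made 3 rises and no fall was left, while 5.10% and 6.80% of all genes rose and 7.31% and 6.48% fell.

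With the low dose, no gene of the 10 passed 2-fold against MII, where 0.515% of all genes rose and 0.128% fell, or 1.29% and 0.206% of those reaching 5 FPKM. The changes ran from −0.43 for *Daam1* to 0.85 for *Pfn1*, with a median of 0.13 against 0.00 over all genes. *Fmn2*, *Daam1*, *Wasl* and *Cttn* were lower than in MII, and the other 6 were higher. Against GV, none of the 10 passed 2-fold in TubA-10 either, where 0.742% of all genes rose and 5.60% fell (1.77% and 14.2% of those reaching 5 FPKM), and *Myo5b* came closest at 0.94. With equal *Gapdh* 3 genes passed it against GV, *Fmn2* (1.02), *Wasl* (1.07) and *Myo5b* (1.20), and with equal FPKM sums *Myo5b* did (1.02), while the share of all genes rising was 3.29% and 1.14%.

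With the high dose, again none of the 10 passed 2-fold against MII, where 0.328% of all genes rose and 2.44% fell, or 0.542% and 6.09% of those reaching 5 FPKM. The changes ran from −0.47 for *Pfn2* to 0.46 for *Fmn2*, with a median of −0.08 against 0.00 over all genes and 0.06 over the 7197 that reached 5 FPKM in MII or TubA-20. The median of the 10 includes *Spire2*, *Cttn* and *Pfn2*, which are not among the 7197. *Fmn2* and *Spire1* (0.45) were above the upper quartile of those 7197 genes, 0.32, and *Pfn2*, itself under 5 FPKM in both libraries, was below the lower quartile, −0.29. Set against GV, which the MII comparison also uses, TubA-20 showed 3 rises past 2-fold, *Fmn2* (1.53), *Wasl* (1.29) and *Spire1* (1.07), and 3 falls, *Pfn2* (−1.42), *Spire2* (−1.29) and *Pfn1* (−1.18). In that comparison 7.61% of all genes rose and 11.7% fell, and among those with at least 5 FPKM 20.2% and 26.8%. Once the median change was set to 0, *Spire1* (0.88) no longer passed 2-fold.

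Between the doses, 1 of the 10 genes passed 2-fold, *Pfn1* with its fall of 1.12, while 5.52% of all genes fell and 0.660% rose by as much, or 14.1% and 1.45% of those reaching 5 FPKM. *Fmn2* (0.77), *Wasl* (0.49), *Spire1* (0.38), *Daam1* (0.36) and *Cttn* (0.34) were higher in TubA-20 than in TubA-10, and *Pfn2* (−0.86), *Spire2* (−0.76), *Cfl1* (−0.39) and *Myo5b* (−0.29) were lower. A pseudocount of 0.1 brought the falls past 2-fold to 3, with *Spire2* at −1.11 and *Pfn2* at −1.03, and those of all genes to 11.3%.

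**Figure D3:**
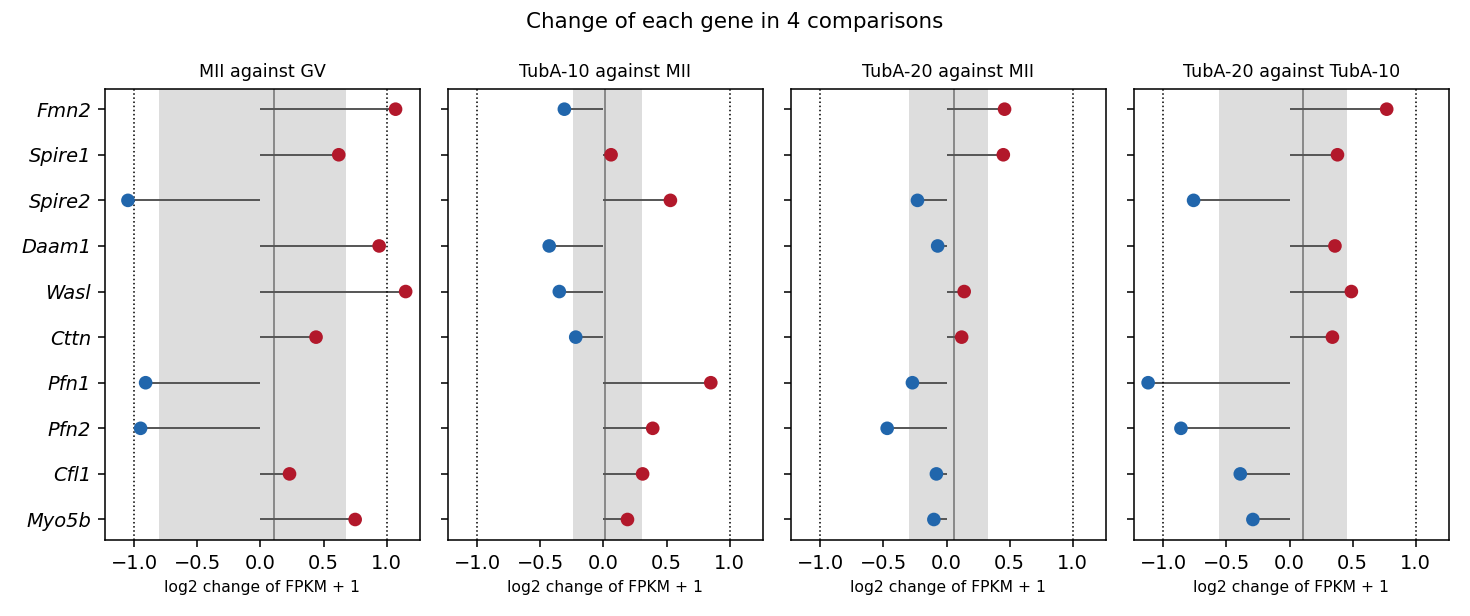
Log2 change of FPKM + 1 of each gene in 4 comparisons (red higher, blue lower, dotted lines at 2-fold), over the range from lower to upper quartile (grey band) and the median (grey line) of genes that reach 5 FPKM in either library. From GV to MII, 7 genes lie outside the grey band, and in TubA-20 against MII *Fmn2*, *Spire1* and *Pfn2* do.

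The order of the libraries was shared by most of the 10 genes and by most other genes. TubA-10 lay between GV and MII in 7 of the 10, and in 68.8% of 7897 genes with at least 5 FPKM in a library. TubA-20 lay beyond MII, on the side away from GV, in 7 of the 10 and in 73.3% of those genes. Both held for 6 of the 10 (*Fmn2*, *Wasl*, *Cttn*, *Spire2*, *Pfn1* and *Pfn2*) and for 52.7% of the genes. These shares are close to the background, so the order is not particular to the 10 genes. The exceptions were *Spire1* and *Myo5b*, whose TubA-10 level was above MII, *Cfl1*, whose TubA-10 level was the highest of all, and *Daam1*, whose TubA-20 level was just under MII.

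The summed level of the 10 genes was 929 FPKM before culture (GV) and 942 in MII, against 1163 with 10 μM and 934 with 20 μM of the drug. *Pfn1* and *Cfl1* together made up 75.1% of it in GV, 66.9% in TubA-10, 54.3% in MII and 48.6% in TubA-20. The share of these genes was thus smallest in TubA-20, while the sum differed little between GV, MII and TubA-20. *Pfn1* mRNA was 14.0 times as abundant as *Fmn2* mRNA in GV, 7.82 times in TubA-10, 3.48 times in MII and 2.10 times in TubA-20.

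Transcript length, which the choice of genes did not use, went with these changes only in part. In MII against GV, the principal transcripts of *Cttn* (3286 bases), *Wasl* (4352), *Spire1* (5033), *Daam1* (5879), *Fmn2* (6442) and *Myo5b* (6745) were all longer than those of *Pfn1* (861), *Spire2* (2330) and *Pfn2* (2342), and *Cfl1* (2354), with a change of 0.23, lay between these sets. Among 7868 genes with at least 5 FPKM in a library, the median log2 change from GV to MII was −0.66, −0.05, 0.28 and 0.59 in 4 equal groups ordered from the shortest to the longest transcripts. From MII to TubA-20 these medians were −0.17, 0.01, 0.07 and 0.08, and between the doses they were −0.46, −0.08, 0.14 and 0.29. *Pfn1*, in the shortest group, was below the median of that group in both comparisons with TubA-20. *Spire2*, *Pfn2* and *Cfl1* were all in the second group and of nearly equal length. From GV to MII they still went different ways, at −1.05, −0.95 and 0.23. The part of length in the changes of the 10 genes was not tested.

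**Figure D4:**
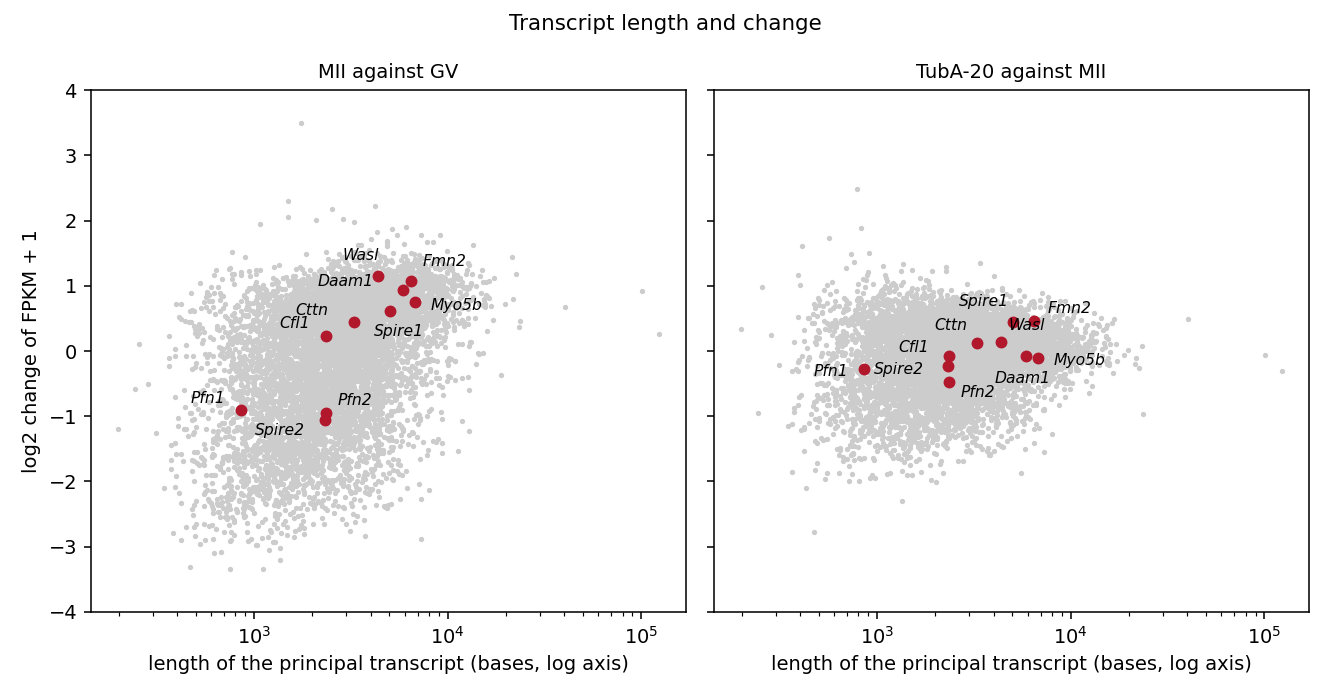
Log2 change of FPKM + 1 against the length of the principal transcript (bases, log axis) for genes with at least 5 FPKM in a library (grey) and the 10 genes (red). In MII against GV the red points of *Pfn1*, *Spire2* and *Pfn2*, the shortest transcripts, lie below 0 and the other 7 above, and in TubA-20 against MII all of them lie between −0.47 and 0.46.

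Other actin genes were taken as 7 lists by function, 111 genes in all. From GV to MII, 12 of them rose and 7 fell past 2-fold. In TubA-20 against MII, 0 rose and 1 fell, the tropomyosin gene *Tpm2*, which went from 2.16 to 0.138 FPKM. Over all genes the shares were 3.05% and 8.34% for the first comparison and 0.328% and 2.44% for the second, so changes past 2-fold against MII were rare in the whole table. Among genes reaching 5 FPKM, as 75 of the 111 did in GV or MII, the shares were 8.26% and 20.8%, then 0.542% and 6.09%. The median log2 change of list members with at least 5 FPKM was 0.28 from GV to MII and 0.04 from MII to TubA-20.

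Among 11 other formin genes, none passed 2-fold from GV to MII or from MII to TubA-20. *Diaph1* stood highest in MII against GV at 0.99 and went from 21.5 to 43.7 FPKM. *Fhod3* was lowest in GV and stood at 81.3 FPKM in TubA-10, 90.8 in MII and 128 in TubA-20, the order of *Fmn2*. *Fmnl3* stood apart, at 60.9 FPKM in GV, 43.0 in MII, then 49.7 at the low dose and 23.3 at the high dose, with −0.86 in TubA-20 against MII.

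Among 19 genes of other Arp2/3 activators, their partners and related nucleators, *Wasf2*, *Wasf3* and *Cobl* rose and *Washc1* fell past 2-fold from GV to MII. *Wasf2*, which encodes a WAVE protein, went from 85.5 to 206 FPKM, a log2 change of 1.26 beside the 1.15 of *Wasl*. None of the 19 passed 2-fold in TubA-20 against MII. Among the 11 with at least 5 FPKM, *Nckap1*, a WAVE complex subunit, stood highest there at 0.51 and the adaptor *Nck1* lowest at −0.02. Of the 9 subunits of the Arp2/3 complex itself, *Actr2* (1.17) and *Arpc1b* rose and *Arpc3* (−1.34) fell from GV to MII. From MII to TubA-20 they ran from −0.97 for *Arpc1a* to 0.88 for *Arpc2*.

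Of the 24 actin and turnover genes, 5 fell and 2 rose from GV to MII, beside 8.34% and 3.05% of all genes, and 20.8% and 8.26% of those reaching 5 FPKM, as 17 of the 24 did. The falls were those of *Cfl2* and *Dstn*, which encode the other members of the cofilin family, of *Twf2*, a twinfilin, and of *Tmsb4x* and *Cotl1*. *Cotl1* went from 7.11 to 1.16 FPKM, a log2 change of −1.91. *Actb*, β-actin, rose by 1.03 and *Capza2*, a capping protein subunit, by 1.26. None passed 2-fold between MII and TubA-20. *Actb* was highest there at 0.66, with 81.1 FPKM in MII and 129 in TubA-20, and *Tmsb10*, a monomer-binding thymosin, lowest at −0.98, with 544 and 275 FPKM. Between the doses 7 of the 24 genes fell past 2-fold and 0 rose, beside 5.52% and 0.660% of all genes and 14.1% and 1.45% of those reaching 5 FPKM. Over the 111 genes of all 7 lists, 10 fell and 2 rose (9.01% and 1.80%) between the doses. The shortest transcripts, *Pfn1* among them, had a median of −0.46 at that step.

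Among 17 vesicle and myosin genes, *Myo5a* and *Myo6* were among those that rose past 2-fold from GV to MII, and none fell. Between MII and TubA-20, among the 10 with at least 5 FPKM, the myosin light chain gene *Myl12a* stood highest at 0.67 and the non-muscle heavy chain gene *Myh9* lowest at −0.39. *Rab11b* was lowest in MII against GV, at −0.42. Among 16 genes of small GTPases and kinases, *Rock1*, which encodes a kinase, rose from GV to MII, by 1.26, and *Pak1* was lowest at −0.52. From MII to TubA-20, among those with at least 5 FPKM, *Rhob* was highest at 0.66 and *Mapk3*, a MAP kinase, lowest at −0.51. Of the 15 filament-binding genes, *Rdx*, which encodes radixin, rose from 938 to 2158 FPKM between GV and MII, and *Actn1* was lowest at −0.87. In TubA-20 against MII, *Actn4* was highest at 0.55 and *Vil1* lowest at −0.39 among those with at least 5 FPKM.

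**Figure D5:**
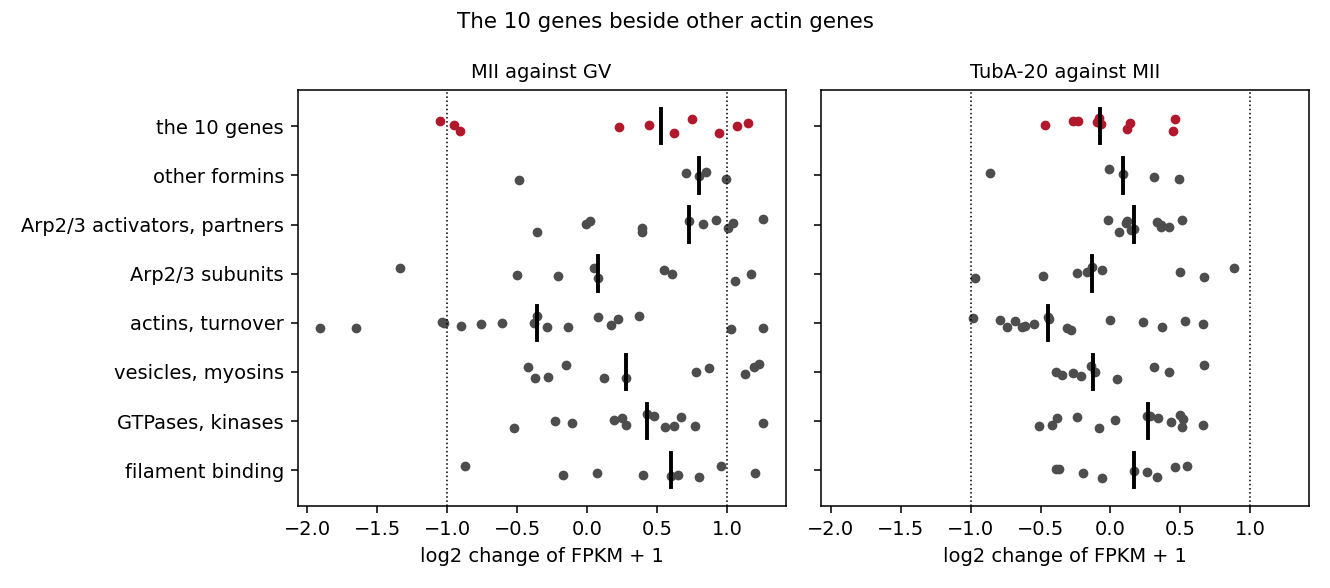
Log2 change of FPKM + 1 in 2 comparisons for the 10 genes (red) and for genes of the 7 other lists that reach 5 FPKM in either library (grey), with the median of each row as a bar and dotted lines at 2-fold. The 10 genes are shown whatever their level. In MII against GV the 10 genes have a median of 0.53, and in TubA-20 against MII no point shown passes 2-fold.

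For each gene, the most similar profile over the 4 libraries was sought among the other genes of the 10 and the 7 lists. Likeness was the root mean square difference of log2 FPKM + 1 after each gene was centred on its own mean, over up to 84 genes, and with 4 libraries many genes lie close. *Spire1* was nearest to *Rac1* (0.02), *Wasl* to *Rock1* (0.05), *Daam1* to the formin gene *Diaph3* (0.06), *Cttn* to *Wdr1* (0.07) and *Fmn2* to *Actb* (0.08). *Pfn2* was nearest to *Cfl2* and *Spire2* to *Pfn2*, both at 0.08. *Myo5b* was nearest to *Ran* (0.10), *Cfl1* to *Brk1* (0.11) and *Pfn1* to *Coro1b* (0.16), the loosest match of the 10. *Coro1b*, a coronin gene, shared the near-GV level in TubA-10, with 21.3 FPKM before culture (GV) and 11.0 in MII, against 20.8 with 10 μM and 6.73 with 20 μM of the drug.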

How the data were processed

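The authors deposited 1 table of FPKM values, made per the labels and the methods of the study with STAR 2.5.0 on mm10 and Cufflinks with the fr-firststrand library type, and Cuffdiff 2.2.1 is also named. FPKM correct for the length of a transcript and the size of a library, and read counts were not used here. Of 21959 entries, 21794 received a symbol by Ensembl identifier, and entries sharing a symbol were added, giving 21957 genes. Coordinates are those of GENCODE M21 on GRCm38, the assembly behind mm10. Changes are log2 of the ratio of FPKM + 1 with 2-fold as the threshold. Length and motifs were read from 1 principal transcript a gene. Relative depth came from the commonest ratio of FPKM between 0.001 and 0.15 in 2 libraries. The 10 genes, the lists, the markers and the alternatives (a pseudocount of 0.1 or 0.01, a minimum of 1 or 5 FPKM, 4 scalings, thresholds of 1.5-fold and 3-fold) were chosen with earlier results of these data known. Beside the 10 genes, *Pfn4* and some of the markers, those named are, per list, the largest rise and fall in MII against GV and in TubA-20 against MII among genes with at least 5 FPKM, the nearest profiles, *Hdac6*, *Actb*, *Gapdh*, and the members of short counts past 2-fold, chosen after their values were seen. A gene that this rule names is not reported here. The scripts were tested on simulated data. Python 3.11.15, numpy 2.4.6, pandas 2.3.3 and matplotlib 3.10.9 were used.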

Additional observations from a re-analysis of the deposited data

How the results depend on the processing

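No paired analysis was possible because each condition is 1 library, and leaving out a library was not possible either. Of 467 recomputed changes of single genes, 6 changed sign, none of them larger than 0.15 as deposited. They concern *Wasl* and *Cttn* in TubA-20 against MII, *Pfn1* in TubA-10 against GV, and *Cfl1* in TubA-20 against GV (−0.04 with the median change set to 0). Only the 4 scalings could change a sign, because another pseudocount or a minimum level cannot. With these 6 included, 26 of the 467 changed sign or crossed the 2-fold threshold. Of 120 recounts of genes past 2-fold, 96 equalled the count given or stayed within 1.5 times of it, and 24 moved. Many of the counts given were 0, and a recount of 0 was then taken as the same. The 96 therefore do not measure how stable the counts above 0 were. The share of all genes past the threshold under the same setting is given in brackets. From GV to MII, falls numbered 2 with a pseudocount of 0.1 (14.2%) or 0.01 (18.3%), 0 among genes with at least 5 FPKM (20.8%), 3 with the median change set to 0 (9.43%, with 1 rise, 1.65%), and 0 with equal FPKM sums (7.31%) or equal *Gapdh* (6.48%). Falls between the doses numbered 2 with equal *Gapdh* (7.42%) and 3 with a pseudocount of 0.1 (11.3%) or 0.01 (17.4%). Rises from GV to TubA-10 numbered 3 with equal *Gapdh* (3.29%) and 1 with equal FPKM sums (1.14%). With a 1.5-fold threshold there were 5 rises (2645 of 21957 genes) and 3 falls (14.1%) from GV to MII, 1 rise in TubA-10 against MII (3.83%), 1 rise (6.25%) and 3 falls (11.3%) between the doses, 4 rises from GV to TubA-10 (7.76%) and 5 from GV to TubA-20 (16.3%). With a 3-fold threshold there were 0 rises (33 of 21957 genes) and 0 falls (3.53%) from GV to MII, 0 rises (0.524%) and 0 falls (6.84%) from GV to TubA-20, and 0 falls between the doses (1.55%). The median gene with at least 1 FPKM everywhere stood above GV by 0.13 in MII, and by 0.14 and 0.19 at the low and high dose. Values of *Spire2* and *Cttn* rest on few fragments, and their counting error is unknown.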
